A study of Homo sapiens with 12 samples.

Results

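The genes described are those of the human mitochondrial genome, taken as every entry of the count table whose Ensembl identifier maps to a symbol that starts with MT-. The table held 37 such genes among 63241, namely 13 mRNAs, 2 ribosomal RNAs (rRNAs) and 22 transfer RNAs (tRNAs). All 37 were matched in GENCODE 29 on GRCh38, and 28 of them are transcribed as part of the heavy-strand transcript and 9 as part of the light-strand transcript. The RNA came from HCT116, a human colorectal carcinoma cell line, in 12 libraries of total RNA that fall into 4 groups of 3.

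The control group was wild-type HCT116 given the solvent DMSO for 8 h. The actinomycin D group was the same wild-type line given 5 µg/mL of this DNA-binding inhibitor of transcription for 6 h. The POLR1A-AID group (genotype POLR1A-AID1) carries an auxin-inducible degron on POLR1A, the largest subunit of RNA polymerase I, and received 500 µM indole-3-acetic acid for 8 h, after 1 µg/mL doxycycline had been added 24 h earlier to switch on the plant receptor OsTIR1. The POLR2A-AID2 group carries a second-generation degron on POLR2A, the largest subunit of RNA polymerase II, and received the auxin analogue 5-PH-IAA at 1 µM for 8 h. Each degron line is a single line with no untreated libraries among the 12, so the line, the auxin ligand, the doxycycline (POLR1A-AID) and the loss of the polymerase cannot be told apart in a comparison with the control. Likewise the actinomycin D and its shorter time, 6 h against 8 h in the titles, cannot be told apart. The times are those in the titles, whereas the protocol for extraction names 6 h for every condition. The labels call the 3 dishes of a group, treated on 1 day, technical replicates. A p-value here therefore covers the variation among dishes and nothing beyond it.

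Human mitochondrial DNA is copied into RNA by its own single-subunit polymerase, POLRMT, with the factors TFAM and TFB2M, and not by RNA polymerase I or II. Both strands give long polycistronic precursors that are cut mostly at the tRNAs, which punctuate the mRNAs and rRNAs, and the released mRNAs then differ in lifetime. The mRNAs encode core subunits of complexes I, III, IV and V of oxidative phosphorylation, and every other protein of the organelle, POLRMT included, is encoded in the nucleus.

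Along the heavy-strand transcript the order is MT-RNR1, MT-RNR2, MT-ND1, MT-ND2, MT-CO1, MT-CO2, MT-ATP8, MT-ATP6, MT-CO3, MT-ND3, MT-ND4L, MT-ND4, MT-ND5 and MT-CYB. The genes were grouped as proximal (MT-ND1, MT-ND2, MT-CO1), middle (MT-CO2, MT-ATP8, MT-ATP6, MT-CO3) and distal (the 5 others). MT-ND6 is the single mRNA of the light-strand transcript. The 2 pairs of mRNAs that are translated from a shared molecule overlap. The overlaps are shown because reads from these bases belong to both genes, with the shared bases in capitals:

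MT-ATP8/MT-ATP6 (chrM:8512-8587, + strand): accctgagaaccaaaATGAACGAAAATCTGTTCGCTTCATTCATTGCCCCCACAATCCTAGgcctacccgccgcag
MT-ND4L/MT-ND4 (chrM:10745-10781, + strand): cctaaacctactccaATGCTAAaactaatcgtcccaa

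The capitals span 46 and 7 bases. In each run they begin with the ATG that starts the second gene of the pair. The sequences are the GENCODE 29 reference on GRCh38, not reads from the cells.

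The libraries held between 11289272 (POLR2A-AID2) and 27394059 (actinomycin D) estimated counts. Epithelial markers were present in every group, with 5 of them summing to between 3494 and 3957 CPM in the controls, 1911 and 2049 in POLR1A-AID, 2342 and 2550 in POLR2A-AID2 and 3199 and 3475 with actinomycin D (KRT8 between 997 and 1993 CPM over the 12 libraries, where CPM is the usual depth-scaled count, here with library sizes scaled by TMM). Markers of other cell types were low, with CD3E at 1 count in all libraries together and DCN at 8. COL1A1, a fibroblast marker, moved with the groups, at 7.46 ± 0.466 CPM in the controls, 22.1 ± 0.849 in POLR1A-AID, 14.1 ± 2.46 in POLR2A-AID2 and 10.9 ± 0.848 with actinomycin D (SD, n = 3), and was called higher in all 3 treatments. PTPRC and LYZ, which mark blood cells, summed with CD3E to between 2.02 and 2.82 CPM in POLR2A-AID2 and to at most 0.420 CPM in the other groups, and the part of any of these markers in the results was not tested. The degrons act on proteins, so the transcripts of POLR1A and POLR2A do not check these labels. Control library 1 had the lowest CPM of its group for 13 of 13 mitochondrial mRNAs, and control library 3 the highest for 13 of 13. POLR2A-AID2 library 2 had the lowest for 12 of 13 and library 1 the highest for 13 of 13, and POLR1A-AID library 3 had the highest for 12 of 13. Counts of calls are therefore also given with libraries left out.

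Mitochondrial genes took 6.14%, 7.50% and 8.27% of all counts in the control libraries. The share was 5.62%, 5.72% and 6.03% in POLR1A-AID, 10.5%, 8.74% and 9.58% in POLR2A-AID2 and 3.53%, 3.65% and 3.51% with actinomycin D. No 2 groups overlapped, and the order from low to high was actinomycin D, POLR1A-AID, control, POLR2A-AID2. The 4 groups differed in an exact permutation test over all 369600 assignments of libraries (p = 6.49e-05, the smallest it can give, adjusted p = 0.00156 over 24 values). A single treatment against the control, 3 libraries against 3, cannot go below an exact p of 0.1, which each of the 3 treatments reached. In bulk RNA, fewer organelles or cells and less RNA in each cannot be told apart, and a share also moves with the nuclear RNA that forms the rest of the library. The same limit holds for every change in CPM below, which is relative to the other RNA of a library. Rose and fell are used in that sense, and the amount of RNA per cell is not known from these counts.

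In the control cells, levels per length separated the genes of the shared heavy-strand precursor. MT-CO3, a subunit of complex IV, stood highest at 12610 ± 1874 CPM per kb (SD, n = 3), and MT-ATP6 of the complex V proton channel followed at 10998 ± 2618 CPM per kb. MT-CO1, the catalytic subunit of complex IV, had 9068 ± 1109 CPM per kb, and MT-CO2, its partner that accepts electrons from cytochrome c, 8467 ± 1942 CPM per kb. Each of these 4 differed from the next in the order by less than the SD of the higher. That SD is between libraries, which moved the mRNAs together, so it does not measure the order within a library. Within each control library the 4 kept this order. The lowest of the heavy-strand mRNAs was MT-ND5 of complex I, at 2994 ± 437 CPM per kb. MT-ND6 on the other strand had 2349 ± 584 CPM per kb, which overlaps MT-ND5 across libraries, though MT-ND6 was the lower within each. The 2 rRNAs were lower still, at 225 ± 24.99 (MT-RNR1) and 284 ± 44.97 CPM per kb (MT-RNR2). The kit removes rRNA, so these are residues and not rRNA levels, which holds for every group.

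Actinomycin D had the widest effect on the mitochondrial genes. All 13 mRNAs fell, by between 0.19 and 4.06 on the log2 scale, in edgeR's quasi-likelihood test with Benjamini-Hochberg adjustment over 23593 genes, and 12 of the 13 did not overlap the control libraries. Over the 32 mitochondrial genes that passed the filter on low counts, 28 fell and 0 rose. Over all genes tested, 53.4% passed (28.5% fell and 24.9% rose), and 58.2% did not overlap. The median change was -2.15 for the 32 genes and -0.06 for all genes. The 5 genes that did not pass the filter were the tRNA genes MT-TV, MT-TW, MT-TD, MT-TR and MT-TT, and several of the other tRNA genes passed only through groups other than actinomycin D, so the 28 is a description and not a support. Without control library 1 the count was again 28, and over all 6 omissions of 1 library it ran from 26 to 28. MT-CO3 lost its call in 1 of these 6 (edgeR adjusted p = 0.0560). Scaled to the summed mitochondrial mRNAs, 5 genes were called higher (MT-RNR1, MT-RNR2, MT-CO1, MT-TS1 and MT-CO3). A positive change was seen in 5 of the 13 mRNAs (MT-CO1, MT-CO2, MT-ATP6, MT-CO3 and MT-ND4), of which MT-CO1 and MT-CO3 passed.

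**Figure D1:**
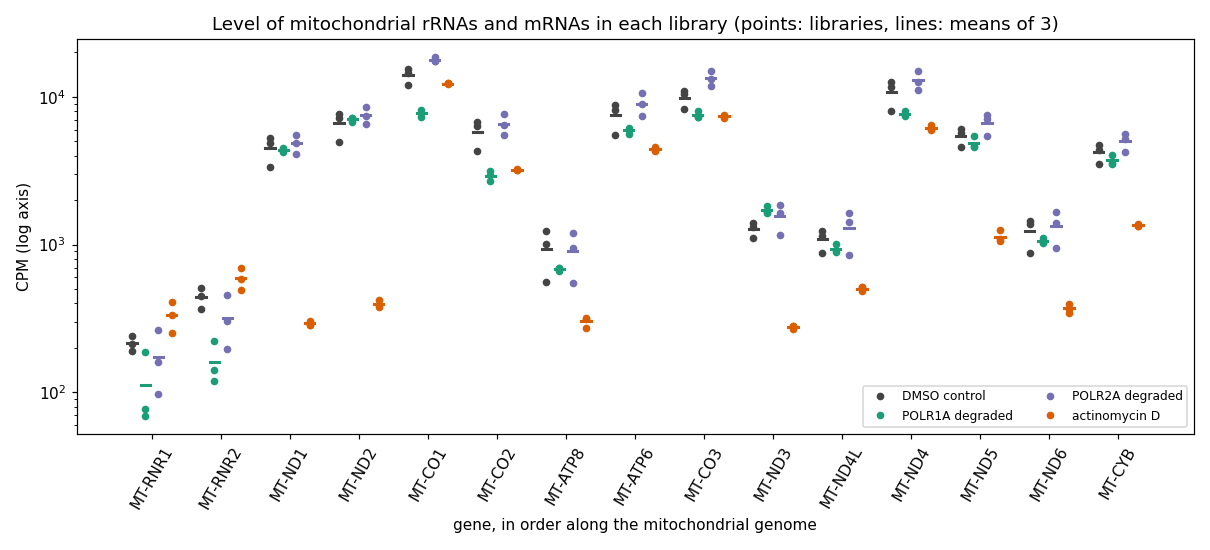
CPM on a log axis (vertical) of the 2 rRNAs and 13 mRNAs in genome order (horizontal), with a point for each library and a line at the mean of 3; degraded stands for the auxin-treated degron lines. The actinomycin D points of MT-ND1 and MT-ND2 lie between 287 and 422 CPM, far under their control points, while those of MT-CO1 lie within the control range.

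Among the mRNAs, the drop with actinomycin D differed most between the proximal neighbours MT-ND2 and MT-CO1. MT-ND1 (ENSG00000198888, chrM:3307-4262), a membrane subunit of complex I, had 3369, 4850 and 5243 CPM in the control libraries and 287, 306 and 287 CPM with actinomycin D. Its groups lay more than an order of magnitude apart, and it fell by 3.94 on the log2 scale (SE 0.18, adjusted p = 5.35e-08). MT-ND2 (ENSG00000198763, chrM:4470-5511), also of complex I, went from 4979, 7181 and 7664 CPM to 379, 422 and 388 CPM. This was a fall of 4.06 (SE 0.18, adjusted p = 3.47e-08), or 16.7-fold, the largest among the mRNAs. The next mRNA along the same precursor is MT-CO1 (ENSG00000198804, chrM:5904-7445), which had 12070, 14517 and 15363 CPM in the controls and 12175, 12386 and 12306 CPM with actinomycin D. The treated libraries all lay inside the control range. MT-CO1 fell by 0.19 (SE 0.07, edgeR adjusted p = 0.0285), a call lost under 4 alternative settings and without any of 5 of the 6 libraries, and turned to a rise of 0.74 when libraries were scaled to their summed mitochondrial mRNAs. The end of MT-ND2 and the start of MT-CO1 are shown because this boundary separates the largest fall among the mRNAs from the smallest, with the first codon of MT-CO1 in capitals and 5 tRNA genes between them:

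MT-ND2 last bases (chrM:5482-5511, + strand): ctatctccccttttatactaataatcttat
MT-CO1 first bases (chrM:5904-5963, + strand): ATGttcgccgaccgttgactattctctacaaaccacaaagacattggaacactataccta

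Across that boundary, the ratio of MT-ND2 to MT-CO1 counts within a library needs no scaling. It was 0.413, 0.495 and 0.499 in the controls and 0.0311, 0.0340 and 0.0316 with actinomycin D. The groups lay far apart. By contrast the ratio of MT-ND1 to MT-ND2, which follow each other, stayed between 0.675 and 0.684 in the controls and between 0.727 and 0.756 with actinomycin D, so both fell by nearly the same amount.

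The middle and distal mRNAs fell by intermediate amounts. MT-ND5 (chrM:12337-14148) went from 4542, 5665 and 6070 CPM to 1099, 1253 and 1052 CPM, a fall of 2.26 (SE 0.16, edgeR adjusted p = 1.09e-06). MT-ND3 (chrM:10059-10404), a small complex I subunit, went from 1116, 1310 and 1398 CPM to 282, 269 and 283 CPM and fell by 2.20 (SE 0.16, edgeR adjusted p = 2.12e-06). MT-CYB (chrM:14747-15887), the cytochrome b of complex III, went from 3530, 4346 and 4739 CPM to 1333, 1382 and 1346 CPM. None of these 3 overlapped between the groups, and MT-CYB fell by 1.64 (SE 0.13, edgeR adjusted p = 9.44e-07). MT-ATP8, the small complex V subunit, fell by 1.63 and MT-ND4L, of complex I, by 1.11. Their overlapping partners MT-ATP6 and MT-ND4 fell by 0.76 and 0.81, and MT-CO2 and MT-CO3 by 0.85 and 0.42. Relative to the summed mitochondrial mRNAs these 4 changed by 0.19, 0.14, 0.10 and 0.52, and only MT-CO3 passed (edgeR adjusted p = 2.23e-05). The ratio of MT-ATP8 to MT-ATP6 counts was 12.2% ± 1.91 in the controls and 6.86% ± 0.419 with actinomycin D (SD, n = 3). For MT-ND4L to MT-ND4 it was 10.2% ± 0.727 and 8.22% ± 0.257. Each pair shares a transcript and bases, so how reads were split between the 2 genes enters these ratios.

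**Figure D2:**
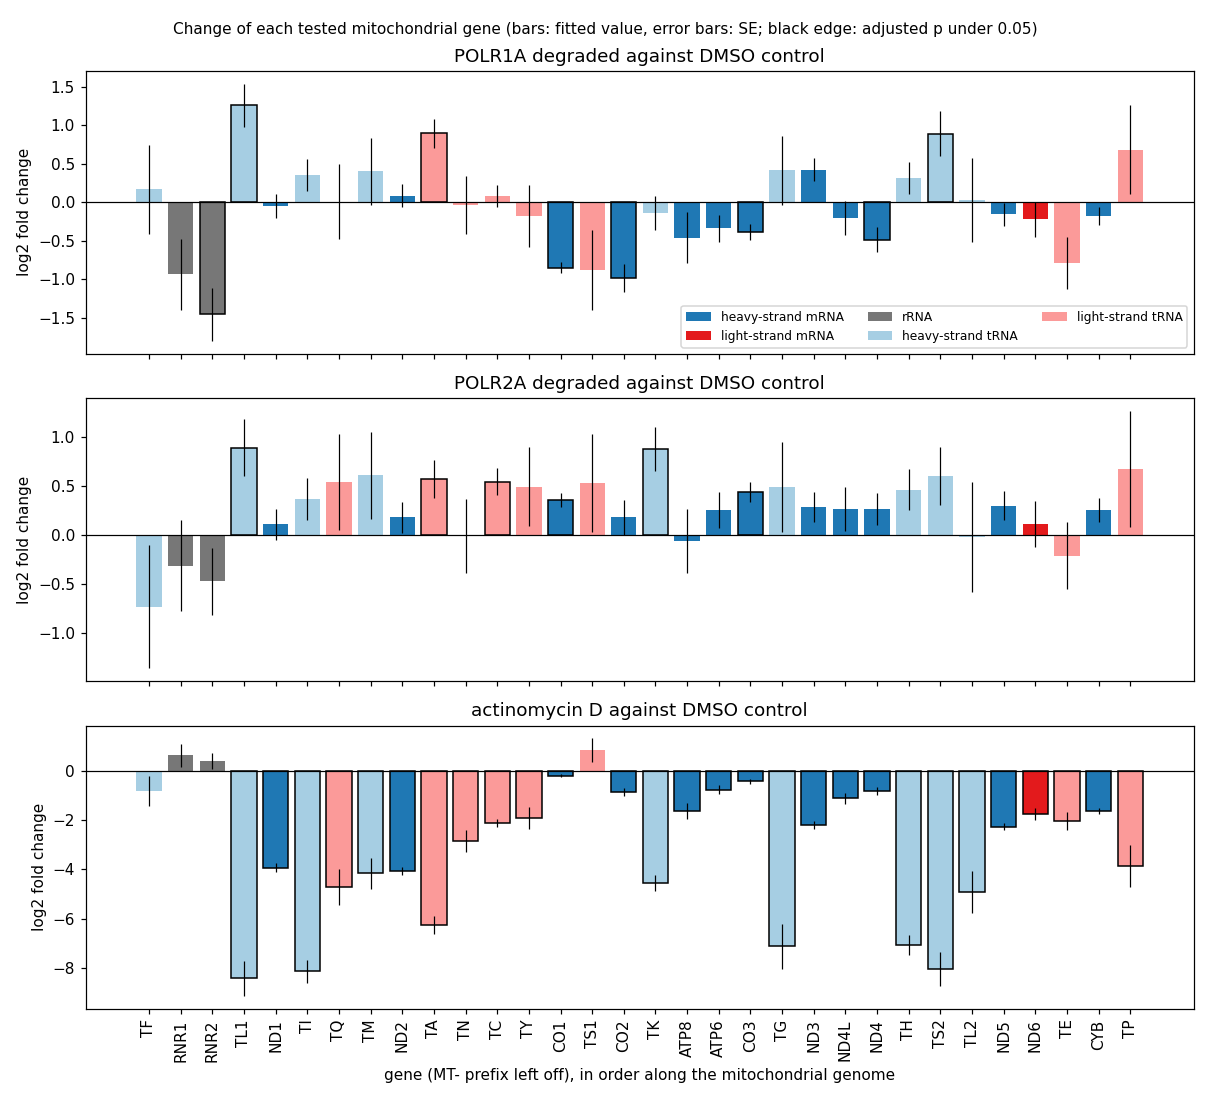
Fitted log2 fold change against the DMSO control (vertical, bars with SE, a black edge where the edgeR adjusted p is under 0.05) of the 32 tested genes in genome order (horizontal), for the 3 treatments. With actinomycin D, MT-ND1 and MT-ND2 fell by 3.94 and 4.06 while the bar of MT-CO1 is -0.19; the bars of MT-CO1, MT-CO2, MT-ATP6, MT-CO3 and MT-ND4 turn positive when libraries are scaled to mitochondrial mRNAs, and those of MT-TL1, MT-TG and MT-TS2, at 0 counts, are no measure of size.

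The light-strand mRNA also fell. MT-ND6 (ENSG00000198695, chrM:14149-14673), a complex I subunit on the opposite strand from all other mRNAs, had 881, 1374 and 1443 CPM in the controls and 368, 399 and 344 CPM with actinomycin D. The groups did not overlap, and the fall was 1.74 (SE 0.24, edgeR adjusted p = 0.000249). The first bases of MT-ND6 are shown to set its strand beside MT-CO1, with the first codon in capitals:

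MT-ND6 first bases (chrM:14614-14673, - strand): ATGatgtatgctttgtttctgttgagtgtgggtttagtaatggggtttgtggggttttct

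MT-ND6 counts were 1.55%, 1.80% and 1.76% of the summed 12 heavy-strand mRNAs in the controls, and 0.982%, 1.04% and 0.919% with actinomycin D. The 4 groups differed in this ratio (exact permutation p = 0.000909, adjusted p = 0.00727). The sum is weighted to the abundant MT-CO1, MT-CO3 and MT-ND4. Against the median heavy-strand mRNA in place of the sum, MT-ND6 was higher by 0.46 on the log2 scale with actinomycin D, not lower, so the ratio gives no direction for the strand as a whole. The kit marks strand, per the labels' protocols, but whether the counting used it is not given in the sources used here. If it did not, reads from the heavy-strand precursor over MT-ND6 and over the light-strand tRNAs cannot be told apart from those genes.

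Among the tRNA genes the heavy-strand ones nearly vanished with actinomycin D. The adaptor genes of the heavy-strand transcript summed to 35.4, 31.7 and 32.2 CPM in the controls and to 1.08, 0.717 and 1.08 CPM with actinomycin D, which is 1534 counts against 61. The groups lay far apart. Mature tRNAs and uncut precursors cannot be told apart in these counts. Of the 14 heavy-strand tRNA genes, 9 were tested and 8 fell, beside 28.5% of all genes tested. Some of these passed the filter only through other groups, so the 8 is again a description and not a support. MT-TI, the isoleucine tRNA, had 17.2, 16.2 and 12.03 CPM in the controls and 0.108, 0.0398 and 0 CPM with actinomycin D. That is 3 counts against 696, a ratio of 0.00309 (95% exact binomial interval 0.000636 to 0.00908, for counting error only). MT-TH, the histidine tRNA, had 2 counts against 234, a ratio of 0.00613 (interval 0.000738 to 0.0224). MT-TL1, a leucine tRNA, had 2.65, 1.68 and 2.75 CPM in the controls and 0 counts in all treated libraries, so it was at least 50.6-fold lower, taking 3 counts over the group as the floor. On the same floor MT-TS2, a serine tRNA, was at least 39.0-fold lower, MT-TG, the glycine tRNA, at least 20.9-fold lower and MT-TD, the aspartate tRNA and not tested, at least 2.79-fold lower. MT-TL2, the other leucine tRNA, had 1 count against 32, a ratio of 0.0224 (interval 0.000551 to 0.134). The lysine tRNA MT-TK went from 4.06, 3.78 and 4.32 CPM to 0.108, 0.279 and 0.0940 CPM (11 counts against 189) and fell by 4.54 (SE 0.32, edgeR adjusted p = 9.64e-11). MT-TM, the methionine tRNA, had 5 counts against 69, with 0, 3 and 2 in the treated libraries. MT-TF, the phenylalanine tRNA and first gene of the transcript, had 0.156, 0.659 and 1.81 CPM in the controls and 0.647, 0.239 and 0.658 CPM with actinomycin D. Its groups overlapped and its change of -0.82 (SE 0.61, edgeR adjusted p = 0.274) did not pass. The median change of the 9 tested genes was -7.06 as fitted and -4.93 with the 3 genes at 0 counts set to their bound. MT-TW, MT-TR, MT-TV and MT-TT were not tested. MT-TW (tryptophan) had 1 count with actinomycin D against 14 in the controls, and MT-TR (arginine) 1 against 5. MT-TV (valine) had 2 against 3 and MT-TT (threonine) 3 against 4, which is too few to set apart.

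The light-strand tRNA genes kept more of their counts. They summed to 178, 179 and 251 CPM in the controls and to 39.1, 35.9 and 45.5 CPM with actinomycin D. Of the 8 genes 7 fell, beside 28.5% of all genes tested, which is likewise a description. MT-TC, the cysteine tRNA (chrM:5761-5826), went from 55.7, 73.3 and 53.0 CPM to 14.8, 11.5 and 16.4 CPM, a fall of 2.10 (SE 0.16, edgeR adjusted p = 5.43e-07). MT-TN, the asparagine tRNA (chrM:5657-5729), went from 40.5, 55.1 and 75.6 CPM to 8.25, 7.64 and 7.89 CPM, a fall of 2.86 (SE 0.44, edgeR adjusted p = 0.000552). MT-TY, the tyrosine tRNA (chrM:5826-5891), fell by 1.92 (SE 0.45, edgeR adjusted p = 0.00587), and did not overlap the controls, as held for the other 2. These 3 neighbours lie between MT-ND2 and MT-CO1 and made up 84.6% ± 4.26 of the light-strand tRNA counts in the controls and 90.03% ± 0.687 with actinomycin D (SD, n = 3). The fourth gene of that cluster, MT-TA for alanine, went from 6.71, 5.99 and 6.48 CPM to 0, 0.159 and 0.0470 CPM, which is 5 counts against 297. Next to heavy-strand MT-TI, with which it shares 3 bases, MT-TQ for glutamine fell by 4.71 (SE 0.74, edgeR adjusted p = 0.000591). MT-TE, the glutamate tRNA beside MT-ND6, fell by 2.04 (SE 0.37, edgeR adjusted p = 0.000206). MT-TP, the proline tRNA and the gene nearest the light-strand promoter, had 2 counts against 24, a ratio of 0.0598 (interval 0.00685 to 0.241). MT-TS1, the light-strand serine tRNA after MT-CO1, had 1.33, 0.360 and 1.23 CPM in the controls and 1.24, 1.51 and 2.44 CPM with actinomycin D. Its groups overlapped, and the change of 0.85 (SE 0.48, edgeR adjusted p = 0.145) did not pass.

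**Figure D3:**
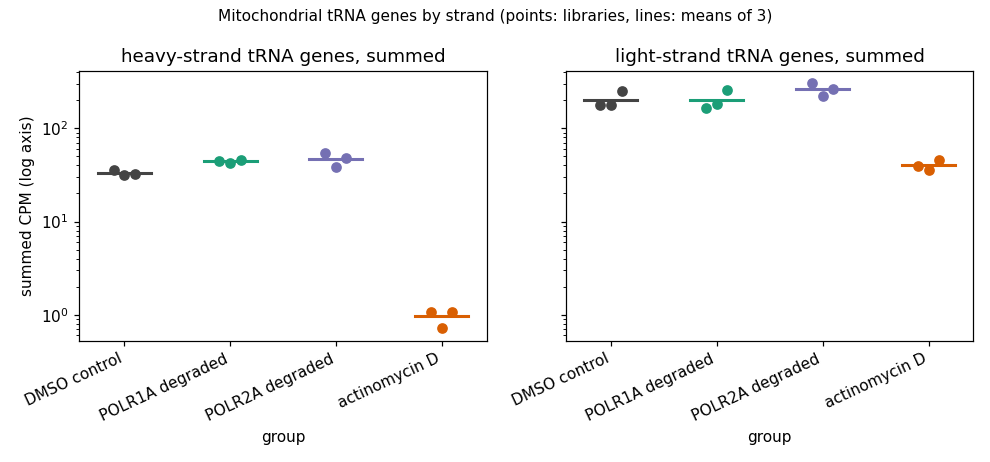
Summed CPM on a log axis (vertical) of the 14 heavy-strand (left) and 8 light-strand (right) tRNA genes by group (horizontal), with a point for each library and a line at the mean of 3. With actinomycin D the heavy-strand sum lies between 0.717 and 1.08 CPM and the light-strand sum between 35.9 and 45.5 CPM.

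The sequences of 3 light-strand tRNA genes that kept counts and 3 heavy-strand ones that lost nearly all are shown with each GC step in capitals, since actinomycin D is known to bind DNA by intercalating at GC steps. The motif searched was GC, which reads the same on both strands, and 19 of the 22 tRNA genes (86.4%) hold it at least once.

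MT-TN (chrM:5657-5729, - strand): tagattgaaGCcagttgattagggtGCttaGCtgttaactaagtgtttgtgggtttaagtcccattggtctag
MT-TC (chrM:5761-5826, - strand): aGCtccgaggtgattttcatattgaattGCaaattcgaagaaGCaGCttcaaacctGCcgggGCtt
MT-TY (chrM:5826-5891, - strand): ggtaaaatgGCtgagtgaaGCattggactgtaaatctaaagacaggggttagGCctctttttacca
MT-TI (chrM:4263-4331, + strand): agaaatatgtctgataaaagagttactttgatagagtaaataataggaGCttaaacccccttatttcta
MT-TH (chrM:12138-12206, + strand): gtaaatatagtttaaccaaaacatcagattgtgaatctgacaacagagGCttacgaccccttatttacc
MT-TS2 (chrM:12207-12265, + strand): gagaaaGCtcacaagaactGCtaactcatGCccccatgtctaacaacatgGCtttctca

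The 6 genes were picked by how many counts they kept, so the display compares nothing. MT-TA, a light-strand gene that kept 5 counts against 297, holds 6 GC steps, as many as MT-TC. MT-TC held 6 GC steps, MT-TN and MT-TY 3 each, MT-TS2 4, and MT-TI and MT-TH 1 each. Over the 17 tested tRNA genes the number of GC steps per 100 bases and the change with actinomycin D gave Pearson's r = 0.17 and Spearman's rho = 0.30. Over the 12 heavy-strand mRNAs they gave r = 0.12 and rho = 0.36. Position along the genome gave r = 0.39 and rho = 0.07 over those 12 mRNAs, and length r = -0.03. The control level per length gave r = 0.55 and rho = 0.68, so mRNAs with a higher control level tended to have the smaller fall. These are descriptions over genes that share precursors, libraries and depth, without a p-value, and the control level also enters the change itself. Among the tRNA genes, MT-TL1, MT-TG and MT-TS2 had no counts with actinomycin D. They entered with fitted changes that are no measure of size.

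The residual rRNAs did not fall with actinomycin D. MT-RNR2, the rRNA of the large mitochondrial subunit, had 368, 508 and 451 CPM in the controls and 492, 696 and 586 CPM with actinomycin D, and these overlapped. MT-RNR1, of the small subunit, had 191, 239 and 213 CPM and 252, 411 and 335 CPM, which did not overlap. The changes of 0.42 (SE 0.33, edgeR adjusted p = 0.336) and 0.64 (SE 0.45, edgeR adjusted p = 0.281) did not pass. Relative to the summed mitochondrial mRNAs, both passed, at 1.35 and 1.56. The rRNA counts were 0.906% ± 0.0981 of the mRNA counts in the controls and 2.42% ± 0.450 with actinomycin D (SD, n = 3). The part of rRNA depletion in these values was not tested.

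After auxin treatment of the POLR1A-AID line mitochondrial genes were called in both directions. Of the 32 tested, 3 rose and 5 fell, in all 25% against 39.1% of all genes tested (20.6% rose and 18.6% fell), and 11 did not overlap the control against 48% of all genes, so the share is under the background. The median change was -0.09, against 0.01 over all genes. Without control library 1 the counts were 4 and 6, and without control library 2, control library 3 or POLR1A-AID library 1 they were 2 and 4. Scaled to the summed mitochondrial mRNAs the balance turned, with 8 higher and 3 lower. The 5 that fell were the 3 mRNAs of complex IV, MT-ND4 and MT-RNR2, and the 3 that rose were tRNA genes.

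MT-CO1 had 7825, 7348 and 8168 CPM in POLR1A-AID, all under the lowest control library at 12070 CPM. It fell by 0.85 (SE 0.07, edgeR adjusted p = 2.92e-09), the firmest change of any mitochondrial gene in this comparison. MT-CO2 (chrM:7586-8269) went from 4275, 6347 and 6752 CPM in the controls to 2686, 2947 and 3171 CPM, without overlap, and fell by 0.98 (SE 0.18, edgeR adjusted p = 0.0018). Scaled to the summed mitochondrial mRNAs both were again lower, by 0.48 and 0.59. MT-CO3 (chrM:9207-9990) fell by 0.39 (SE 0.10, edgeR adjusted p = 0.0101) and MT-ND4 (chrM:10760-12137) by 0.48 (SE 0.16, edgeR adjusted p = 0.0458). Scaled to the mitochondrial mRNAs these last 2 were at -0.01 and -0.09 and no longer passed. MT-ND4 overlapped the controls and lost its call when any of 5 of the 6 libraries was left out, and MT-CO3 lost it without control library 2 (adjusted p = 0.0987).

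MT-ND1, MT-ND2 and MT-ND3 did not share the drop of MT-CO1 and MT-CO2. MT-ND1 had 4258, 4283 and 4518 CPM in POLR1A-AID and MT-ND2 6771, 7169 and 7136 CPM, both inside the control range. Their changes of -0.04 (SE 0.16) and 0.09 (SE 0.15) did not pass. MT-ND3 had 1634, 1665 and 1835 CPM, all above the highest control library at 1398 CPM, and its change of 0.42 (SE 0.15, edgeR adjusted p = 0.0577) missed the threshold. It passed in edgeR under library totals alone (adjusted p = 0.0158) and when fitting only the groups compared (adjusted p = 0.000408). The DESeq2 test also called it (adjusted p = 0.0264). Relative to the summed mitochondrial mRNAs MT-ND1, MT-ND2 and MT-ND3 were higher by 0.34, 0.47 and 0.79, and all passed, so for MT-ND1 the sign depends on the scaling. The remaining mRNAs MT-ATP8, MT-ATP6, MT-ND4L, MT-ND5, MT-CYB and MT-ND6 changed by between -0.46 and -0.16 and did not pass.

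Of the tRNA genes, MT-TL1 rose from 2.65, 1.68 and 2.75 CPM to 5.29, 4.73 and 6.87 CPM, without overlap and by 1.26 (SE 0.28, edgeR adjusted p = 0.00122). MT-TA rose from 6.71, 5.99 and 6.48 CPM to 11.2, 10.4 and 14.1 CPM, by 0.90 (SE 0.19, edgeR adjusted p = 0.000581). MT-TS2 rose from 2.11, 1.74 and 1.64 CPM to 3.94, 2.95 and 3.27 CPM, by 0.89 (SE 0.29, edgeR adjusted p = 0.019), a call lost without control library 2, control library 3 or POLR1A-AID library 1. These 3 lie in 3 different stretches of the genome and on both strands. The other 14 tested tRNA genes changed by between -0.88 and 0.68 and did not pass. Without the filter on low counts, and when fitting only the groups compared, MT-TI (0.348 and 0.352) and MT-TE (-0.798 in both) passed. With the replicate number as a block MT-TE passed as well. MT-RNR2 went from 368, 508 and 451 CPM to 142, 224 and 119 CPM, without overlap, and fell by 1.45 (SE 0.34, edgeR adjusted p = 0.0092). MT-RNR1 also lay under the controls, with 69.7, 189 and 77.3 CPM against a lowest control of 191, but its change of -0.94 (SE 0.46, edgeR adjusted p = 0.156) did not pass. Both are residues of rRNA depletion, whose part in these changes was not tested.

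After auxin treatment of the POLR2A-AID2 line 6 of the 32 tested genes rose and 0 fell, 18.8% against 61.4% of all genes tested (33.2% rose and 28.2% fell), again a smaller share than the background. Non-overlap was found for 8 of the 32, against 65.2% of all genes. The median change was 0.29, against 0.08 over all genes. Without POLR2A-AID2 library 2 the count that rose was 11, without control library 1 it was 7, without control library 2 or POLR2A-AID2 library 1 it was 4, and scaled to the summed mitochondrial mRNAs it was 0. No rise relative to the mitochondrial mRNAs as a whole therefore passed. With 61.4% of all genes called, a rise in CPM here is relative to nuclear RNA that itself changed.

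MT-CO1 had 18650, 17561 and 17398 CPM in POLR2A-AID2, all above the highest control library at 15363 CPM, and rose by 0.35 (SE 0.07, edgeR adjusted p = 0.000165). MT-CO3 went from 8229, 10400 and 11029 CPM to 14988, 11922 and 13236 CPM, without overlap, and rose by 0.44 (SE 0.10, edgeR adjusted p = 0.00282). The other 4 were tRNA genes. MT-TK rose by 0.87 (SE 0.22), from 4.06, 3.78 and 4.32 CPM to 6.37, 7.52 and 8.46 CPM (edgeR adjusted p = 0.00161). MT-TC, at 88.9, 83.0 and 93.9 CPM, rose by 0.54 (edgeR adjusted p = 0.00589), and MT-TL1 and MT-TA rose by 0.89 (edgeR adjusted p = 0.0123) and 0.57 (edgeR adjusted p = 0.0151). The calls of MT-TL1 and MT-TA were lost without control library 2 and without POLR2A-AID2 library 1. None of the other 11 mRNAs passed, and their changes lay between -0.06 (MT-ATP8) and 0.30 (MT-ND5). Under library totals alone MT-ND3, MT-ND4, MT-ND5 and MT-CYB passed, as did MT-ND5 and MT-CYB in the DESeq2 test. MT-RNR1 and MT-RNR2 changed by -0.31 and -0.47 and did not pass.

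The treatments were also compared with each other. Against POLR2A-AID2, POLR1A-AID had 11 of 32 genes lower and 0 higher, beside 62.2% of all genes called (29.1% higher and 33.2% lower), and 9 of the 32 did not overlap, beside 68.5% of all genes. Among the mRNAs the widest difference was in MT-CO1, at -1.20 (SE 0.07, edgeR adjusted p = 5.94e-12), followed by MT-CO2 at -1.16 (SE 0.18, edgeR adjusted p = 0.000374). The count was 6 without POLR1A-AID library 1 and 7 without POLR2A-AID2 library 1, and scaled to the mitochondrial mRNAs it was 2 lower and 10 higher. Against POLR1A-AID, actinomycin D had 23 genes lower and 4 higher, beside 56.2% of all genes called (31.8% lower and 24.4% higher), and 31 did not overlap, beside 63.3%. MT-CO1 was among the 4 that were higher, by 0.66 (SE 0.07, edgeR adjusted p = 4.72e-08), with MT-RNR1, MT-RNR2 and MT-TS1. So MT-CO1 had its lowest level in POLR1A-AID, while MT-ND1 and MT-ND2 had theirs with actinomycin D. Against POLR2A-AID2, actinomycin D had 28 genes lower and 1 higher, beside 70.9% of all genes called (39.8% lower and 31.1% higher), and 29 did not overlap, beside 74.3%. The 1 was MT-RNR2, a residue of rRNA depletion. The count was 0 without POLR2A-AID2 library 1 or 2 and without actinomycin D library 2 or 3.

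The make-up of the 13 mRNAs within a library shows the same contrasts without any scaling between libraries. Complex I mRNAs were 42.1% ± 0.913 of the mRNA counts in the controls, 49.2% ± 0.396 in POLR1A-AID, 40.6% ± 1.38 in POLR2A-AID2 and 23.9% ± 0.825 with actinomycin D (SD, n = 3). Complex IV mRNAs were 40.7% ± 1.51, 32.5% ± 0.490, 42.8% ± 2.21 and 60.1% ± 1.12 in the same order. POLR1A-AID and actinomycin D lay outside the control range on opposite sides for both complexes. Single mRNAs did not all follow their complex. MT-ND4 of complex I was 14.6% ± 0.714 in the controls, 13.7% ± 0.247 in POLR1A-AID and 16.1% ± 0.484 with actinomycin D. MT-CO3 of complex IV was 13.6% ± 0.554 in the controls and 13.4% ± 0.183 in POLR1A-AID. MT-CO1 alone was 20.8%, 18.6% and 18.4% in the controls, 14.4%, 13.3% and 13.8% in POLR1A-AID, 18.6%, 22.7% and 19.6% in POLR2A-AID2, and 32.2%, 32.1% and 32.6% with actinomycin D. The 2 complex V mRNAs stayed near 12.4% with actinomycin D and between 11.03% and 11.7% in the means of the other groups. MT-ND2 counts per MT-CO1 count were 0.905 ± 0.0614 in POLR1A-AID and 0.418 ± 0.0444 in POLR2A-AID2, beside 0.469 ± 0.0487 in the controls and 0.0322 ± 0.00157 with actinomycin D (SD, n = 3).

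**Figure D4:**
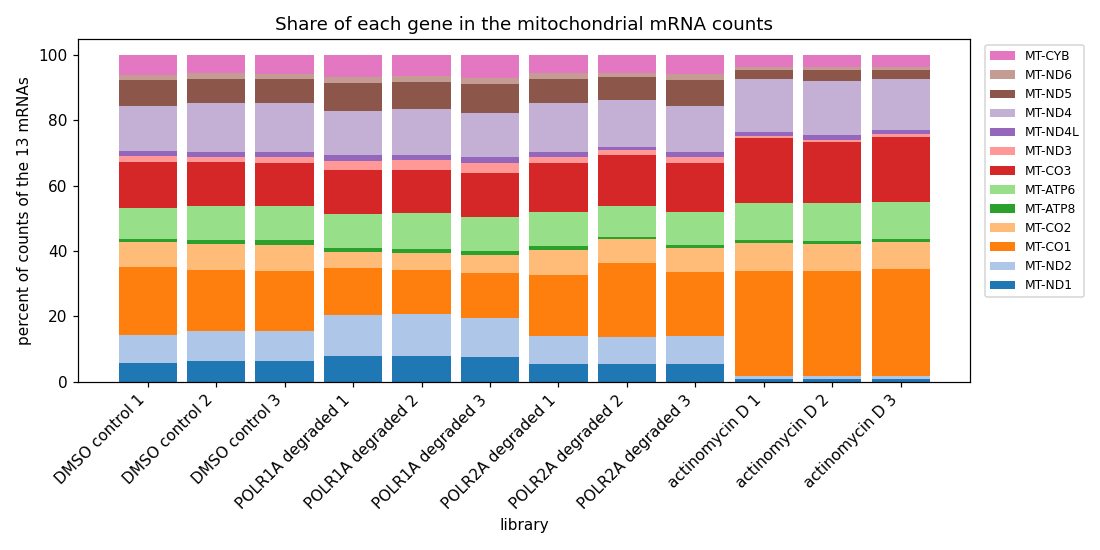
Stacked percent of the counts of the 13 mitochondrial mRNAs (vertical) in each of the 12 libraries (horizontal), with a colour for each gene. MT-CO1 takes between 32.1% and 32.6% with actinomycin D and between 13.3% and 14.4% in POLR1A-AID, and MT-ND1 and MT-ND2 nearly disappear with actinomycin D.

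By position along the heavy-strand transcript, the summed distal mRNAs were 0.884, 0.909 and 0.922 of the summed proximal mRNAs in the controls and 0.723, 0.752 and 0.701 with actinomycin D. The values were 0.963, 0.977 and 1.02 in POLR1A-AID and 0.965, 0.807 and 0.943 in POLR2A-AID2. The 4 groups differed (exact permutation p = 0.00344, adjusted p = 0.0138). The direction rests on MT-CO1, which was 56.0% ± 2.66 of the proximal counts in the controls and 94.7% ± 0.207 with actinomycin D. With MT-CO1 left out, a choice made after seeing the data, the ratio was 2.06 ± 0.0874 in the controls, 1.66 ± 0.0702 in POLR1A-AID, 2.22 ± 0.0714 in POLR2A-AID2 and 13.7 ± 0.245 with actinomycin D (SD, n = 3). The differences from the control then had the opposite sign for each of the 3 treatments, so no gradient along the transcript can be read from these data.

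By class and strand of RNA, tRNA counts were 0.368%, 0.270% and 0.339% of mRNA counts in the controls and 0.106%, 0.0948% and 0.123% with actinomycin D. They were 0.387%, 0.406% and 0.514% in POLR1A-AID and 0.359%, 0.338% and 0.350% in POLR2A-AID2. Actinomycin D lay under and POLR1A-AID above the controls without overlap, and the 4 groups differed (exact permutation p = 0.000519, adjusted p = 0.00623). Light-strand tRNA counts were 5.01, 5.65 and 7.79 times the heavy-strand ones in the controls and 36.3, 50.1 and 42.1 times with actinomycin D. POLR1A-AID had 3.68, 4.22 and 5.63 and POLR2A-AID2 5.65, 5.79 and 5.43, both overlapping the controls. The 4 groups differed (exact permutation p = 0.00318, adjusted p = 0.0138). With MT-TN, MT-TC and MT-TY left out, a choice made after seeing the data, the ratio was 0.961 ± 0.408 in the controls and 4.24 ± 0.471 with actinomycin D (SD, n = 3). The light-strand counts left with actinomycin D were mostly MT-TS1 (113) and MT-TE (93), beside 44 of MT-TQ, 5 of MT-TA and 2 of MT-TP. MT-TF held 32 of the 61 heavy-strand counts. The ratio therefore does not stand for every gene of a strand. The rRNA to mRNA ratio also differed over the 4 groups (exact permutation p = 0.00292, adjusted p = 0.0138).

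Nuclear copies of mitochondrial genes share sequence with them, and estimated counts can be split between a gene and its copy. The table names 404 copies of the 13 mRNAs, 290 of them with counts, and together they held 0.892% of the counts of copies and mitochondrial genes. The most counted was MTATP6P1, and the copies of MT-ATP6 held 4.07% of the pair's total. With actinomycin D MTND2P28, a copy of MT-ND2, fell by 3.80 (SE 0.11, edgeR adjusted p = 8.36e-13) beside 4.06 for MT-ND2 itself. MTCO1P12, a copy of MT-CO1, changed by -0.09 (SE 0.12, edgeR adjusted p = 0.565) and MTATP6P1 fell by 1.28 (SE 0.20, edgeR adjusted p = 0.00065). Not every copy moved with its gene. A less counted copy of MT-ND1 rose by 1.04 with actinomycin D (SE 0.30, edgeR adjusted p = 0.00681), while MT-ND1 fell by 3.94. In POLR1A-AID MTND2P28 rose by 0.56 (SE 0.09, edgeR adjusted p = 0.000123), beside the 0.09 of MT-ND2 that did not pass. Adding the copies' counts to their genes left the numbers of calls against the control at 3 and 5, 6 and 0, and 0 and 28.

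Nuclear genes that serve mitochondrial RNA are given as counts beside the share of all genes called, which was 20.6% higher and 18.6% lower in POLR1A-AID, 33.2% and 28.2% in POLR2A-AID2, and 24.9% and 28.5% with actinomycin D. Of 10 listed genes for mitochondrial transcription, 0 rose and 5 fell in POLR1A-AID, 1 rose and 7 fell in POLR2A-AID2, and 2 rose and 7 fell with actinomycin D. Their median changes were -0.25, -0.59 and -0.75, beside 0.01, 0.08 and -0.06 over all genes. POLRMT, the mitochondrial RNA polymerase, had 94.5 ± 7.96 CPM in the controls, 60.4 ± 4.15 in POLR1A-AID, 49.9 ± 7.07 in POLR2A-AID2 and 111 ± 7.57 with actinomycin D (SD, n = 3). It fell by 0.64 (SE 0.09, edgeR adjusted p = 2.88e-05) and by 0.91 (SE 0.09, edgeR adjusted p = 5.42e-07) in the degron lines and rose by 0.23 (SE 0.09, edgeR adjusted p = 0.0411) with actinomycin D. TFAM, which binds and bends the promoters, changed by -0.12 and -0.01 in the degron lines without passing and rose by 0.28 (SE 0.05, edgeR adjusted p = 7.53e-05) with actinomycin D. TFB2M, which opens the promoters with POLRMT, fell by 0.77, 0.78 and 0.75 in POLR1A-AID, POLR2A-AID2 and actinomycin D. MTERF3, of the mTERF family, fell by 0.83, 0.97 and 1.20. MTERF1, which binds within MT-TL1, fell by 1.53 with actinomycin D, and TEFM, the elongation factor, by 1.21. So POLRMT and TFB2M both fell in the degron lines, where TFAM did not pass. With actinomycin D POLRMT and TFAM both rose while TFB2M fell.

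Of 27 genes for processing and modification of mitochondrial RNA, 1 rose and 21 fell in POLR1A-AID, 2 rose and 20 fell in POLR2A-AID2, and 4 rose and 16 fell with actinomycin D. Their median changes were -0.42, -0.56 and -0.44, beside 0.01, 0.08 and -0.06 over all genes. PUS1, a pseudouridine synthase of tRNAs, fell by 1.03 in POLR1A-AID (SE 0.08, edgeR adjusted p = 5.82e-10). NSUN4, which methylates MT-RNR1, fell by 1.57 in POLR2A-AID2 (SE 0.09, edgeR adjusted p = 5.49e-12), and FASTKD5, needed to cut mRNA ends that no tRNA flanks, by 2.06 with actinomycin D (SE 0.09, edgeR adjusted p = 2.19e-14). Of 10 genes for stability and decay, 1 rose and 4 fell, 0 rose and 7 fell, and 2 rose and 4 fell, in the same order. Their median changes were -0.21, -0.40 and -0.07, and the last is near the -0.06 of all genes, as the 6 of 10 called with actinomycin D is near the 53.4% of all genes. PNPT1, the polynucleotide phosphorylase of the RNA degradosome, fell by 1.09 in POLR1A-AID (SE 0.07, edgeR adjusted p = 4.79e-11). LRPPRC, which stabilises mitochondrial mRNAs, fell by 0.44 there (SE 0.05, edgeR adjusted p = 1.7e-07). TACO1, which promotes translation of MT-CO1, fell by 1.20 in POLR2A-AID2 (SE 0.16, edgeR adjusted p = 1.64e-05) and by 0.91 with actinomycin D (SE 0.15, edgeR adjusted p = 0.000143). These are RNA levels in the same libraries, and their part in the mitochondrial values was not tested.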

How the data were processed

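Total RNA of HCT116 cells was sequenced in 12 libraries, after rRNA depletion with a stranded total RNA kit, per the labels' protocols. The authors deposited a table of estimated counts, of which 76.1% were whole (65.8% for the mitochondrial genes). Per the submitters' processing notes, tools used in the series include HTSeq 2.0.2, RSEM 1.3.3, STAR and DESeq2 1.44.0, with GRCh38 and hg38 as builds, and none is tied to this table. Which annotation was counted, and whether by strand, is not given in the sources used here. Gene positions and sequences came from GENCODE 29 (GRCh38).

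The estimated counts were rounded and tested in edgeR 4.0.16 (R 4.3.3) with TMM scaling, filterByExpr and the quasi-likelihood test on all 12 libraries, with group means and no block. Adjustment over all 23593 genes passing the filter was by Benjamini-Hochberg with a threshold of 0.05. Depth ran from 11289272 to 27394059 counts, which limits the tRNA genes most. DESeq2 1.42.0 was an alternative, beside other scalings, filters, fits and left-out libraries. The 6 measures taken within libraries were tested by exact permutation of libraries, adjusted over 24 values. After the fit, edgeR was also run on counts simulated from it, with a small set of genes changed up and down in equal number. Such a simulation does not check the scaling where a large share of all genes changes. The intervals cover counting error only, since the reads carry no molecular identifiers that the sources used here mention.

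All 37 mitochondrial genes were described. Of the nuclear lists, POLRMT, TFAM and TFB2M and up to 3 further genes per list and comparison with the largest change that passed were eligible for naming, and of the nuclear copies the 3 with the most counts. The members, lists and tests were chosen with earlier results of these data known. Replicate numbers did not pair the samples.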

Additional observations from a re-analysis of the deposited data

How the results depend on the processing

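The 4-group differences of all 6 within-library measures stayed under an exact permutation p of 0.05 in all 13 values from alternative settings (highest p = 0.0134) and all 72 with 1 library left out (highest p = 0.0216), but the directions of single measures did not all hold. With the difference of medians over genes in place of the ratio of sums, MT-ND6 against the heavy-strand mRNAs with actinomycin D was 0.455, the distal to proximal ratio was -0.281 in POLR1A-AID, 0.0577 in POLR2A-AID2 and 2.15 with actinomycin D, and the light-strand to heavy-strand tRNA ratio was 0.172 in POLR1A-AID and 0.456 in POLR2A-AID2. Without MT-CO1, an alternative chosen after seeing the data, the distal to proximal differences were -0.310, 0.107 and 2.73 in the same order of treatments, which shows that MT-CO1 sets the direction. Leaving out 1 library at a time, the POLR2A-AID2 differences ranged from -0.0529 to 0.0756 (distal to proximal), from -0.0161 to 0.207 (tRNA to mRNA) and from -0.239 to 0.0799 (light-strand to heavy-strand tRNA). Scaling to the summed mitochondrial mRNAs moved the median of all genes by 0.36, -0.29 and 0.88 in POLR1A-AID, POLR2A-AID2 and actinomycin D, and library totals alone moved it by 0.04, 0.12 and -0.12. Under mitochondrial mRNA scaling MT-ND1 in POLR1A-AID was 0.34, and with actinomycin D MT-CO1 was 0.74, MT-CO2 0.10, MT-ATP6 0.19, MT-CO3 0.52 and MT-ND4 0.14. Counts against the control that moved by over 1.5 times under that scaling were 8 higher and 3 lower in POLR1A-AID, 0 higher in POLR2A-AID2 and 5 higher with actinomycin D. Between treatments, the same scaling gave 10 higher and 2 lower in POLR1A-AID against POLR2A-AID2, and 5 higher with actinomycin D against POLR2A-AID2. Library totals alone gave 12 higher in POLR2A-AID2, fitting only the groups compared gave 5 higher in POLR1A-AID, and no filter on low counts gave 1 higher in POLR1A-AID against POLR2A-AID2. The 1 gene higher with actinomycin D against POLR2A-AID2 became 0 under library totals alone and when fitting only the groups compared. Leaving out 1 library at a time gave 4 to 11 higher in POLR2A-AID2, 6 to 14 lower in POLR1A-AID against POLR2A-AID2 and 0 to 2 higher with actinomycin D against POLR2A-AID2. Apart from those due to the construction named above, the cause of these changes was not tested.

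Replicates with the same number did not deviate together: 0 of 18 pairs had a correlation over 0.1 (-0.0612 to 0.0386) and 0 libraries correlated best with their own number, so the samples share only a number. With the replicate number as a block, 3 rose and 5 fell in POLR1A-AID, 6 rose in POLR2A-AID2 and 27 fell with actinomycin D, and 0 were higher with actinomycin D against POLR2A-AID2. Low counts of the tRNA genes and the 3 technical dishes per group limit these results most, and the within-library measures cannot pass in a single comparison of 3 against 3.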
